A study of Homo sapiens with 6 samples.

Results

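The genes described here are the semaphorins of classes 3 to 7, their plexin and neuropilin receptors, the Slit ligands with their Robo receptors, and netrins with the receptors DCC, neogenin and UNC5. They were chosen by gene symbol among protein-coding genes, which gave 46 of the 58219 gene identifiers in the count files. UNC5CL, a separate gene whose symbol continues that of UNC5C, was left out and had at most 13 counts in a library. All libraries came from SNU-449, a long-established line of human liver cancer cells (labelled hepatocellular carcinoma, grade II-III/IV). Per the labels, 3 libraries (Yes WT) were from a stable line expressing wild-type Yes, a SRC family tyrosine kinase, and 3 (Yes T348I) from a stable line expressing Yes with the gatekeeper change T348I. All 6 were from cells given 100 nM dasatinib, which inhibits ABL and SRC family kinases. The series holds no library from cells without the drug. The promoter of the introduced gene, the number of clones behind each line and the length of the treatment are not given in the sources used here. Nothing in the labels says that libraries of a group were separate cultures, so p-values here reflect library-to-library spread that may be technical.

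Semaphorins are secreted or membrane-bound ligands that were first known for steering growing axons and are also known for guiding vessels, immune cells and tumour cells. Plexins are their receptors and act on small GTPases through an intracellular GTPase-activating domain. Secreted class 3 semaphorins mostly need a neuropilin as the binding partner, and neuropilins also bind VEGF family growth factors. Slits repel cells through Robo receptors, and netrins act through DCC and neogenin or, as repellents, through UNC5 receptors.

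The promoters of 4 members, a pair that fell and a pair that rose by some of the largest amounts, are shown because the family spans very different start regions. Each is a window of 300 bases, 250 before and 50 after a RefSeq start (GRCh38.p14), written on the gene's own strand with every CpG dinucleotide in capitals. The windows are chr1:151146582-151146881 (minus strand) for SEMA6C, chr3:129606627-129606926 (minus strand) for PLXND1, chr2:205682251-205682550 (plus strand) for NRP2 and chr7:83649090-83649389 (minus strand) for SEMA3E, the last at the outermost start of the gene.
SEMA6C: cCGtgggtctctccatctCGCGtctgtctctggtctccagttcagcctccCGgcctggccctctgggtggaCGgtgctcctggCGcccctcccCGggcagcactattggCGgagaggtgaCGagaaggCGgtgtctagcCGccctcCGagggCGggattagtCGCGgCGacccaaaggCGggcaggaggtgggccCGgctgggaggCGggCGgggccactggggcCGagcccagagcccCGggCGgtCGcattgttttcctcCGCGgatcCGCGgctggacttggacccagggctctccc
PLXND1: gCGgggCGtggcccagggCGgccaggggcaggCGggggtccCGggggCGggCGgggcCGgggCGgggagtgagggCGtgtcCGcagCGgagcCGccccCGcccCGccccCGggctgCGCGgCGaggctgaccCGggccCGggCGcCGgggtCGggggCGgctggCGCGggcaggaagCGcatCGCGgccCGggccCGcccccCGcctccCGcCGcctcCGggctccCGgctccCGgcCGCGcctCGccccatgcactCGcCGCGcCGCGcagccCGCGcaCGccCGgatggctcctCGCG
NRP2: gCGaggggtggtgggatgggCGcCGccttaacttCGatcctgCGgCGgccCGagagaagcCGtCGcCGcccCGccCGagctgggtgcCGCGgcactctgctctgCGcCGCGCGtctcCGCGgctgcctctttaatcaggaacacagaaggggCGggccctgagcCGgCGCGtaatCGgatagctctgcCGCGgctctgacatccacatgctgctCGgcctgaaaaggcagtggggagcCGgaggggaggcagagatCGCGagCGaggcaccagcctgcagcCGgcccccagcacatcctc
SEMA3E: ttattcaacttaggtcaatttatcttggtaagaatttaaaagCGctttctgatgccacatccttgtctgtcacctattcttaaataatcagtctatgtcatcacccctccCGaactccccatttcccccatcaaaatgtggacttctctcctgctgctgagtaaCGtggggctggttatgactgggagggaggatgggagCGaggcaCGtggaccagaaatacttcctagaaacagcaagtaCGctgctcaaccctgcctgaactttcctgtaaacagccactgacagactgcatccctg
These hold 28, 52, 33 and 6 CpG dinucleotides, against a median of 14 over all 35116 windows of the table. The 22 windows of members that fell held 6 to 54, with a median of 23, and the 8 windows of members that rose held 1 to 46, with a median of 18.5. CpG density thus spanned nearly the same range in the members of either direction. Of the 39 windows found for 24 of the 28 tested members, 6 held GGAATG on either strand, the core motif of TEAD factors, where 14% of all windows did. The 6 of 39 are close to that share, and were in SEMA3B, PLXNB1, PLXNB3, NTN4 and ROBO3. By call they were in 5 of 22 windows of members that fell, 0 of 8 that rose and 1 of 9 not called. These are too few windows to compare directions. TGANTCA with any base at N, a pattern that takes in the AP-1 motif, was in none of the 39, where 7.71% of all windows held it. At that share 39 windows are too few to read an absence. A match is a description of these letters and no evidence of binding.

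Counts per library totalled 14360137 to 19608763 on the counted strand. As CPM, the count scaled to library size, YES1 was at 357 to 368 in Yes WT and 383 to 435 in Yes T348I, and its reads do not separate native from introduced transcripts. Hepatocyte markers were mostly low: 6 of 10 had under 10 counts in every library, HP among them at 0 throughout, and ALB had at most 10 counts. CPS1 was the main hepatocyte gene, with a mean of 53.4 CPM in Yes WT and 46.5 in Yes T348I, and CPS1 and TF were both lower there (log2 fold changes -0.20 and -1.37). TF had 1.38, 0.549 and 0.423 CPM in Yes T348I and entered the test only through its higher counts in Yes WT. Of the 6 biliary or epithelial markers, KRT7, KRT8 and KRT18 were high, while KRT19, EPCAM and CDH1 had group means of at most 3.35 CPM. KRT7 went from a mean of 310 to 603 CPM (log2 fold change 0.96), CDH1 fell by 1.16 on the log2 scale, and the other 4 did not pass or were not tested. All 4 mesenchymal markers were high, with VIM, CDH2 and ZEB1 higher in Yes T348I (0.12, 0.57 and 0.32) and FN1 lower (-0.39). Of 6 endothelial markers 5, and of 6 leukocyte markers 5, stayed under 10 counts in every library. The summed level of the endothelial list was 1.2 to 1.53 CPM in Yes WT, compared with 0.480 to 0.615 CPM for Yes T348I. That of the leukocyte list was 2.42 to 3.08 and 0.634 to 1.33 CPM. Most of each difference came from 1 gene, PECAM1 (mean 0.847 and 0.194 CPM) and CD14 (2.43 and 0.721 CPM). Both entered the test only through their higher counts in Yes WT, so their place among tested genes follows from that filter. The other genes of both lists were not tested. The neuronal and Schwann cell list summed to 10.4 to 11.8 CPM in Yes WT, compared with 7.23 to 7.82 CPM for Yes T348I. Nearly all of it was TUBB3. The stellate cell and fibroblast list summed to 142 to 155 CPM in Yes WT and 152 to 165 CPM in Yes T348I, mostly RGS5. In that list RGS5 rose (log2 fold change 0.14), ACTA2 fell (-0.56), LRAT did not pass and the others were not tested. Reads that matched no exon on the strand counted were 6.72% to 7.11% of all reads in Yes WT and 5.77% to 6.22% in Yes T348I. The part of these differences in the results was not tested.

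Of the 46 genes, 28 had enough counts for a test. In Yes T348I 6 of them were higher, 14 were lower and 8 did not pass (edgeR quasi-likelihood test, Benjamini-Hochberg adjusted p under 0.05 over all 14723 genes tested). Over all tested genes 55.3% passed, 28% higher and 27.3% lower, and over these members 71.4% did. Among tested protein-coding genes, as all members are, 60.6% passed. The members' median log2 fold change (Yes T348I over Yes WT) was -0.18, against -0.01 over all genes tested. For 21 members the 3 libraries of one group lay apart from those of the other, 7 with Yes T348I above and 14 below. Over all tested genes 59.5% had groups that did not overlap, 29.9% above and 29.7% below. For protein-coding genes it was 7949 of 12390 tested, 4109 above and 3840 below. A change of at least 2-fold with a passing test was seen for SEMA3B, SEMA6C and SEMA7A, 3 of 28 members, where 4.08% of all tested genes had one. SEMA7A entered the test only through its higher counts in Yes T348I, so its presence among the members that rose follows from that filter. Without SEMA7A, 5 rose and 14 fell, 70.4% passed, 20 had groups that did not overlap and 2 changed at least 2-fold. In bulk RNA, fewer cells that express a gene and less RNA per cell cannot be told apart.

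**Figure D1:**
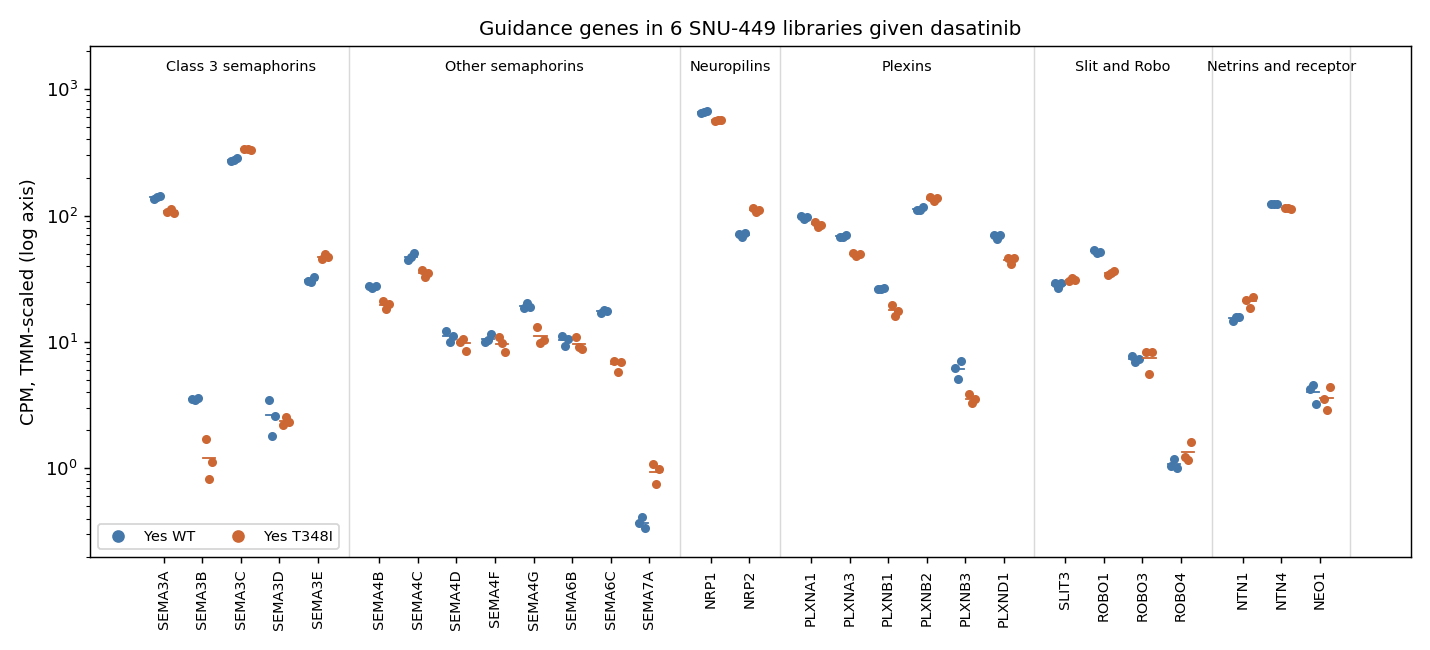
Level of each of the 28 tested members in every library, in CPM (TMM-scaled, log axis), with Yes WT in blue, Yes T348I in orange and a short line at each group's mean. NRP1 and SEMA3C stood highest in both groups, SEMA6C and SEMA3B separated the groups most widely downwards, and replicates of a group lay close together except in genes of few counts.

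Class 3 semaphorins, the secreted ligands, moved in opposite directions. SEMA3C, which is known to promote invasion in several carcinomas (chromosome 7, 80742538 to 80922359), stood at 269, 274 and 288 CPM in Yes WT, against 335, 339 and 333 CPM for Yes T348I. Every Yes T348I library was above every Yes WT library, a log2 fold change of 0.28 (SE of 0.03 and adjusted p = 1.47e-09 in edgeR). SEMA3E, which binds plexin D1 directly without a neuropilin (chromosome 7, 83363238 to 83649113), had 30.5, 29.6 and 32.9 CPM in Yes WT, compared with 45.4, 49.2 and 47.3 CPM for Yes T348I. The groups again did not overlap, and the log2 fold change was 0.61 (SE of 0.06 and adjusted p = 3.16e-12 in edgeR).

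SEMA3A, the prototype axon repellent and a ligand of neuropilin-1 (chromosome 7, 83955777 to 84492724), fell. It had 135, 140.5 and 142 CPM in Yes WT, against 106, 113 and 105 CPM for Yes T348I, with all Yes T348I libraries lower (log2 fold change -0.36, SE of 0.04 and adjusted p = 1.19e-10 in edgeR). SEMA3B, a candidate tumour suppressor of the short arm of chromosome 3 (50267558 to 50277546), was a minor transcript at 3.54, 3.46 and 3.61 CPM in Yes WT, compared with 1.69, 0.823 and 1.13 CPM for Yes T348I. It rested on 50 to 58 counts per library in Yes WT and 12 to 33 in Yes T348I, and had the largest fall among the tested members, a log2 fold change of -1.48 (SE of 0.22 and adjusted p = 1.94e-07 in edgeR). SEMA3D was at 1.799 to 3.48 CPM in Yes WT, compared with 2.21 to 2.54 CPM for Yes T348I, with overlapping groups (adjusted p = 0.47 in the edgeR test). SEMA3F and SEMA3G had at most 4 counts in a library and were not tested.

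SEMA3C, SEMA3E, SEMA3A and SEMA3D lie in this order, all on the minus strand, within 4.44 Mb of chromosome 7. The other 3 protein-coding genes between them, HGF, CACNA2D1 and PCLO, had means of at most 0.131 CPM in either group. Of the 4 neighbours that were tested, 2 rose, 1 fell and 1 did not pass, so the 4 did not share a direction. SEMA3E and SEMA3A are nearest neighbours and moved oppositely.

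**Figure D2:**
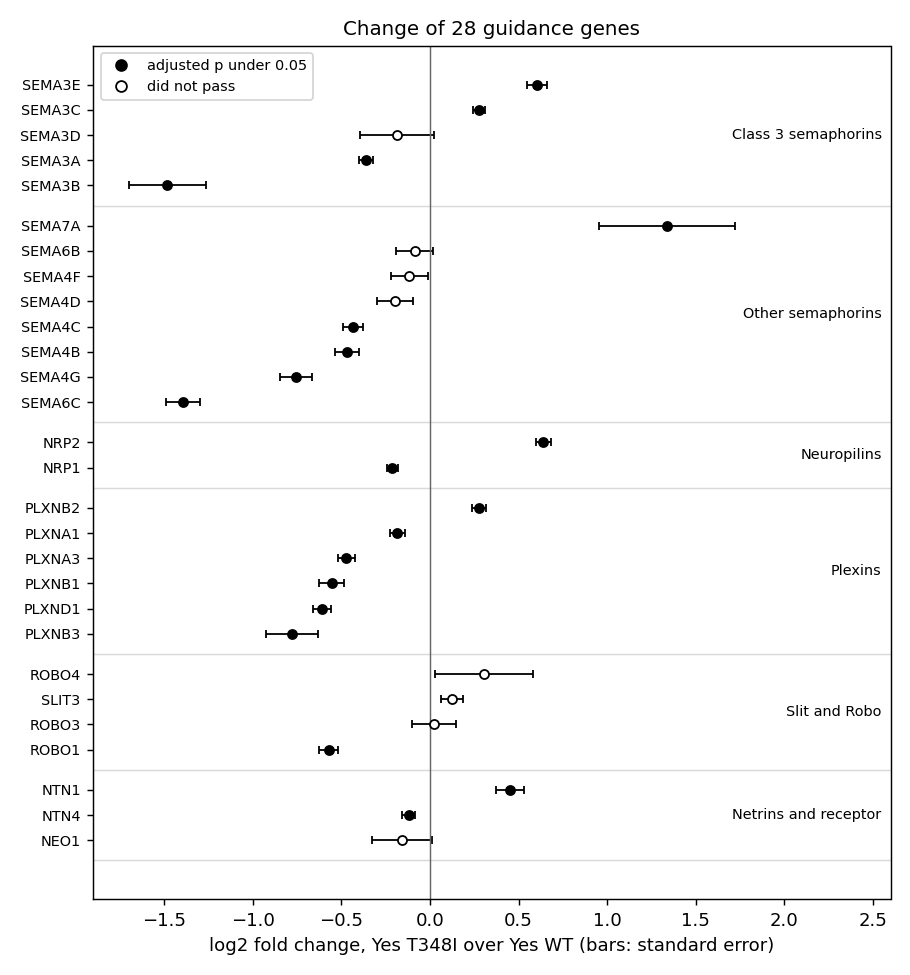
Log2 fold change of Yes T348I over Yes WT for the 28 tested members by role, with standard errors as bars, filled points for genes that passed the edgeR test and open points for those that did not. Plexins and class 4 semaphorins lay mostly left of zero, with PLXNB2 (0.28) the plexin to the right of it, and the neuropilins lay on opposite sides.

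Among membrane-bound semaphorins, every change that passed was a fall apart from SEMA7A. SEMA6C, a transmembrane ligand of class A plexins (chromosome 1, 151131685 to 151146664), had 17.05, 17.9 and 17.7 CPM in Yes WT, compared with 7.08, 5.83 and 6.98 CPM for Yes T348I. Even the lowest Yes WT value lay far above the highest Yes T348I value, and the log2 fold change was -1.40 (SE of 0.10 and adjusted p = 3.89e-16 in edgeR). Its relative SEMA6B was at 9.34 to 11.1 CPM in Yes WT, compared with 8.81 to 11.02 CPM for Yes T348I, and did not pass (adjusted p = 0.51 in the edgeR test). SEMA6A and SEMA6D had at most 2 counts.

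Of the 6 class 4 semaphorins, transmembrane ligands that act mainly on class B plexins, 5 were tested, 3 fell and none rose. SEMA4G (chromosome 10, 100969518 to 100985871) went from 18.5, 20.2 and 18.8 CPM to 13.2, 9.81 and 10.4 CPM, a log2 fold change of -0.76 (SE of 0.09 and adjusted p = 1.89e-09 in edgeR). SEMA4G shares exon bases with MRPL43 on the opposite strand, which the stranded counts keep apart. SEMA4B fell from 27.4 ± 0.719 to 19.7 ± 1.36 CPM (SD, n = 3 each, log2 fold change -0.47) and SEMA4C, a plexin B2 ligand, from 47.4 ± 2.88 to 34.9 ± 2.41 CPM (log2 fold change -0.43). In these 3 genes every Yes T348I library was below every Yes WT library. SEMA4D, the ligand of plexin B1, had 12.2, 9.97 and 11.2 CPM in Yes WT, compared with 9.998, 10.6 and 8.53 CPM for Yes T348I, overlapping groups with an edgeR adjusted p of 0.0997. It passed with upper quartile scaling (log2 fold change -0.24, adjusted p = 0.046 in edgeR) and without Yes WT replicate 2 (-0.27, adjusted p = 0.040 in edgeR). It was smaller without Yes WT replicate 1 (-0.12, adjusted p = 0.402 in edgeR), without Yes T348I replicate 3 (-0.11, adjusted p = 0.411 in edgeR) and with a correction for GC content and length (-0.10, adjusted p = 0.403 in edgeR). SEMA4F was at 9.90 to 11.6 CPM in Yes WT, compared with 8.39 to 10.9 CPM for Yes T348I, and did not pass, and SEMA4A had at most 4 counts. Summed over the 6 genes, class 4 transcripts came to 116 ± 3.69 CPM in Yes WT, compared with 85.4 ± 6.13 CPM for Yes T348I (SD, n = 3 each).

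SEMA7A, the membrane-anchored semaphorin that also binds beta-1 integrins (chromosome 15, 74409289 to 74433958), had 6, 6 and 5 counts in Yes WT and 21, 11 and 14 counts in Yes T348I. On the CPM scale this was 0.334 to 0.415 against 0.754 to 1.08 (log2 fold change 1.34, SE of 0.38 and adjusted p = 0.0029 in edgeR). The groups did not overlap, but the gene was the lowest tested member in Yes WT. The class 5 genes SEMA5A and SEMA5B had at most 2 counts.

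The 2 neuropilins moved in opposite directions. NRP1, co-receptor of SEMA3A and of VEGF-A (chromosome 10, 33177492 to 33336262), had the most counts of all members, at 645, 656 and 669 CPM in Yes WT, against 559, 571 and 569 CPM for Yes T348I. It fell in every Yes T348I library by little (log2 fold change -0.21, SE of 0.03 and adjusted p = 1.93e-07 in edgeR). NRP2, co-receptor of SEMA3F and VEGF-C (chromosome 2, 205681990 to 205798133), had 71.9, 67.55 and 72.4 CPM in Yes WT, compared with 114, 106 and 109.8 CPM for Yes T348I. This rise, with no overlap of groups, had a log2 fold change of 0.64 (SE of 0.04 and adjusted p = 1.37e-16 in edgeR), the lowest adjusted p among the members. Per kilobase of exon, NRP1 exceeded NRP2 by 11.2 ± 0.447 times in Yes WT and 6.22 ± 0.297 times in Yes T348I (SD, n = 3 each).

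All 6 tested plexins passed, 5 of them lower and PLXNB2 higher. PLXND1, the SEMA3E receptor (chromosome 3, 129555175 to 129606818), had 69.5, 65.75 and 70.4 CPM in Yes WT, compared with 46.3, 41.7 and 46.5 CPM for Yes T348I. The log2 fold change was -0.61 (SE of 0.05 and adjusted p = 8.01e-14 in edgeR), opposite to that of its ligand. PLXNB1, the SEMA4D receptor (chromosome 3, 48403854 to 48430051), had 26.0, 26.3 and 26.6 CPM in Yes WT, compared with 19.7, 15.98 and 17.6 CPM for Yes T348I (log2 fold change -0.56, SE of 0.07 and adjusted p = 1.71e-08 in edgeR). PLXNB2, a broadly expressed class B plexin (chromosome 22, 50274979 to 50307627), had 112, 109.7 and 117 CPM in Yes WT, compared with 139.7, 132 and 138 CPM for Yes T348I, all above Yes WT (log2 fold change 0.28, SE of 0.04 and adjusted p = 5.61e-08 in edgeR). Class B plexins thus did not share a direction.

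Of the class A plexins, which pair with neuropilins, PLXNA3 (chromosome X, 154458281 to 154477779) fell from 68.7 ± 1.66 to 49.4 ± 1.604 CPM (SD, n = 3 each, log2 fold change -0.47) and PLXNA1 (chromosome 3, 126988594 to 127037392) from 96.9 ± 2.86 to 85.1 ± 3.90 CPM (log2 fold change -0.18). The fall of PLXNA1 did not pass after a correction for GC content and length (log2 fold change -0.03, adjusted p = 0.48 in edgeR). PLXNB3 fell from 6.15 ± 0.986 to 3.55 ± 0.278 CPM (SD, n = 3 each, log2 fold change -0.78), at 48 to 106 counts per library, and shares 1432 exon bases with SRPK3 on its strand, so its counts are uncertain. PLXNA2, PLXNA4 and PLXNC1 had at most 7 counts and were not tested. Over the 9 plexins the summed level was 379.7 ± 10.1 CPM in Yes WT, compared with 338 ± 14.1 CPM for Yes T348I (SD, n = 3 each).

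The median GC content of the longest transcript was 60.8% for the 14 members that fell and 55.5% for the 6 that rose, and 50.5% and 45.8% for all genes that fell and rose. With the GC and length correction 7 members were higher and 13 lower, and 4 of the 6 tested plexins were lower and 1 higher. Log2 fold changes of the members shifted by -0.06 to 0.16 under it.

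**Figure D3:**
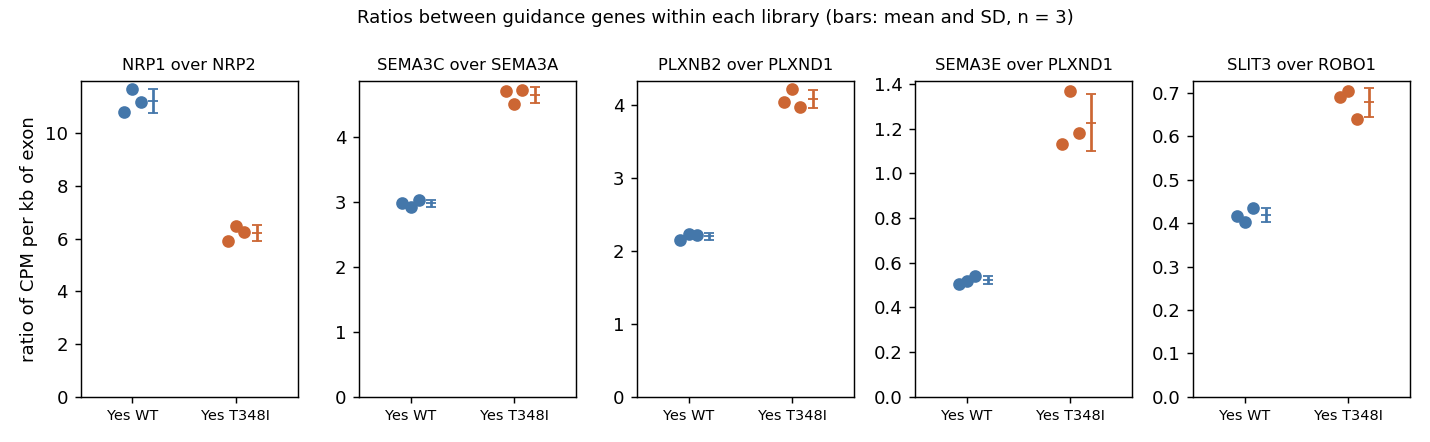
Ratio of 5 pairs of members within each library, as CPM per kilobase of exon, with points for libraries and bars for the mean and SD of 3 libraries, each axis starting at 0. NRP1 over NRP2 was 10.8 to 11.7 in Yes WT and 5.91 to 6.50 in Yes T348I, and the other 4 ratios were higher in all Yes T348I libraries.

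Ratios within a library do not depend on how libraries are scaled, and the pairs were picked with the values known, so they are given without a test. The ratios carry no correction for GC content, which was 38% for SEMA3E and 63.5% for PLXND1. With the GC and length correction, the log2 fold changes of these 2 genes were 0.59 and -0.46, against 0.61 and -0.61 without it. SEMA3C exceeded SEMA3A per kilobase by 2.98 ± 0.0574 times in Yes WT and 4.64 ± 0.126 times in Yes T348I (SD, n = 3 each). SEMA3E stood, per kilobase, at 0.522 ± 0.0168 of the level of its receptor PLXND1 in Yes WT. In Yes T348I it stood at 1.22 ± 0.124 times that level, so the ligand transcript passed the receptor transcript on that scale. In CPM not divided by length, SEMA3E (45.4, 49.2 and 47.3) and PLXND1 (46.3, 41.7 and 46.5) overlapped in Yes T348I. PLXNB2 exceeded PLXND1 by 2.20 ± 0.0459 times in Yes WT and 4.09 ± 0.131 times in Yes T348I. A ratio shows unequal change and not which of the pair moved.

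Per kilobase of exon, NRP1 led the tested members in Yes WT at 57.0 ± 1.04 CPM per kb, before SEMA3C at 44.2 ± 1.55 and NTN4 at 29.7 ± 0.112 (SD, n = 3 each). PLXNB2 (15.5 ± 0.490) and SEMA3A (14.8 ± 0.399) followed, with values that overlapped between them. In Yes T348I SEMA3C came first at 53.6 ± 0.492 and NRP1 second at 49.2 ± 0.575 CPM per kb. NRP2 moved from rank 10 to rank 6 of 28 and SEMA3E from rank 13 to rank 9, while PLXND1 went from 8 to 10 and SEMA6C from 15 to 20. Exon length here is the union of all annotated exons of a gene, which is longer than the transcripts a cell uses.

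In the Slit and Robo branch the main receptor fell and the ligand did not pass. ROBO1, the broadly expressed Slit receptor (chromosome 3, 78597240 to 79767815), had 53.6, 50.7 and 51.6 CPM in Yes WT, compared with 33.7, 35.04 and 36.5 CPM for Yes T348I. No library overlapped, and the log2 fold change was -0.57 (SE of 0.05 and adjusted p = 2.67e-12 in edgeR). SLIT3, the one Slit with counts enough to test (chromosome 5, 168661733 to 169301129), had 29.3, 26.7 and 29.4 CPM in Yes WT, compared with 30.5, 32.3 and 30.7 CPM for Yes T348I. The groups did not overlap, yet the log2 fold change of 0.13 (SE 0.06) had an edgeR adjusted p of 0.079. Over the libraries left out in turn it ran from 0.09 to 0.15 and did not pass. It passed in the unstranded counts (log2 fold change 0.16, adjusted p = 0.045 in edgeR) and with the GC and length correction (0.23, edgeR adjusted p of 5.65e-04). Per kilobase, SLIT3 was at 0.418 ± 0.0158 of ROBO1 in Yes WT and 0.678 ± 0.0331 in Yes T348I (SD, n = 3 each).

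ROBO3, a divergent Robo that lacks high-affinity Slit binding in mammals, had 7.70, 6.99 and 7.36 CPM in Yes WT, compared with 8.31, 5.62 and 8.32 CPM for Yes T348I, with no call and a sign that turned under 5 alternatives. ROBO4, the endothelial Robo, was at 1.003 to 1.18 CPM in Yes WT, compared with 1.17 to 1.62 CPM for Yes T348I, on 15 to 24 counts, and did not pass. Exons of other genes on the opposite strand overlap it. SLIT1, SLIT2 and ROBO2 had at most 5 counts.

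The netrins split. NTN1, the founding netrin (chromosome 17, 9021542 to 9244000), had 14.6, 15.7 and 15.7 CPM in Yes WT, compared with 21.6, 18.7 and 22.6 CPM for Yes T348I, all higher, a log2 fold change of 0.45 (SE of 0.08 and adjusted p = 5.26e-06 in edgeR). NTN4, a basement membrane netrin that binds laminin (chromosome 12, 95657807 to 95791152), had 123.4, 124.2 and 124.1 CPM in Yes WT, compared with 113.9, 114.9 and 113.1 CPM for Yes T348I. That fall was small but larger than the spread between libraries (log2 fold change -0.12, SE of 0.04 and adjusted p = 0.0055 in edgeR), and did not pass with no low-count filter (-0.09, adjusted p = 0.077 in edgeR). Per kilobase, NTN4 exceeded NTN1 by 12.4 ± 0.482 times in Yes WT and 8.40 ± 0.919 times in Yes T348I (SD, n = 3 each).

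Of the 6 netrin receptors, 1 had counts enough to test. DCC, UNC5C and UNC5D had 0 counts in all 6 libraries, which allows up to 0.154 to 0.212 CPM per library (3 counts, counting error only). UNC5A and UNC5B had at most 3 counts. NEO1, the neogenin gene and the tested receptor, was at 3.21 to 4.57 CPM in Yes WT, compared with 2.88 to 4.37 CPM for Yes T348I, with overlapping groups (adjusted p = 0.45 in the edgeR test). In all, 18 members never exceeded 7 counts and stayed untested.

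Partners and effectors of these receptors were followed in a list of 90 genes. The list was chosen with earlier results of these data known. Of 75 tested, 29 rose and 27 fell, 74.7% against 55.3% of all tested genes and 60.6% of tested protein-coding genes. Against a minimum change of 1.2-fold, 10 of the 75 were higher and 10 lower, where 21.9% of all tested genes passed. The median log2 fold change of the 75 was -0.01. Among the 27 tested genes acting below plexins, 14 were higher and 6 lower, 74.1% together, with a median of 0.15. Every partner gene said here to have risen or fallen passed the edgeR test. MICAL2, an actin-oxidising enzyme, rose from 205 ± 4.62 to 295 ± 2.93 CPM (SD, n = 3 each, log2 fold change 0.53) and its relative MICAL3 by a log2 fold change of 0.46, while MICAL1 fell by 0.43 on the log2 scale. RRAS2, a Ras-family GTPase, rose from 55.4 ± 2.64 to 84.2 ± 0.852 CPM (log2 fold change 0.61), and RND3, an atypical small GTPase, by 0.37. The collapsin response mediators split, DPYSL3 higher at a log2 fold change of 0.42 and DPYSL2 lower at -0.33. The genes of guanine nucleotide exchange factors that bind class B plexins, ARHGEF11 and ARHGEF12, fell by 0.30 and 0.25 on the log2 scale.

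Outside the rule, 14 ligands and co-receptors were tested, 4 higher and 8 lower. That is 85.7%, where 55.3% of all tested genes and 60.6% of tested protein-coding genes passed. FLRT2, which encodes a ligand of UNC5 receptors, rose from 32.7 ± 1.21 to 61.9 ± 2.15 CPM (SD, n = 3 each, log2 fold change 0.92), and its relative FLRT3, which also binds ROBO1, fell from 55.9 ± 1.40 to 35.3 ± 1.84 CPM (log2 fold change -0.66). RGMB, a neogenin ligand, rose by a log2 fold change of 0.54, and DRAXIN, a netrin and DCC antagonist, fell from 6.21 ± 0.726 to 2.95 ± 0.379 CPM (log2 fold change -1.05). The receptor subunit ITGB1 and the plexin B partner MET rose by 0.17 and 0.12, and CD44 and the glypican GPC1 fell by 0.27 and 0.37 on the log2 scale.

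**Figure D4:**
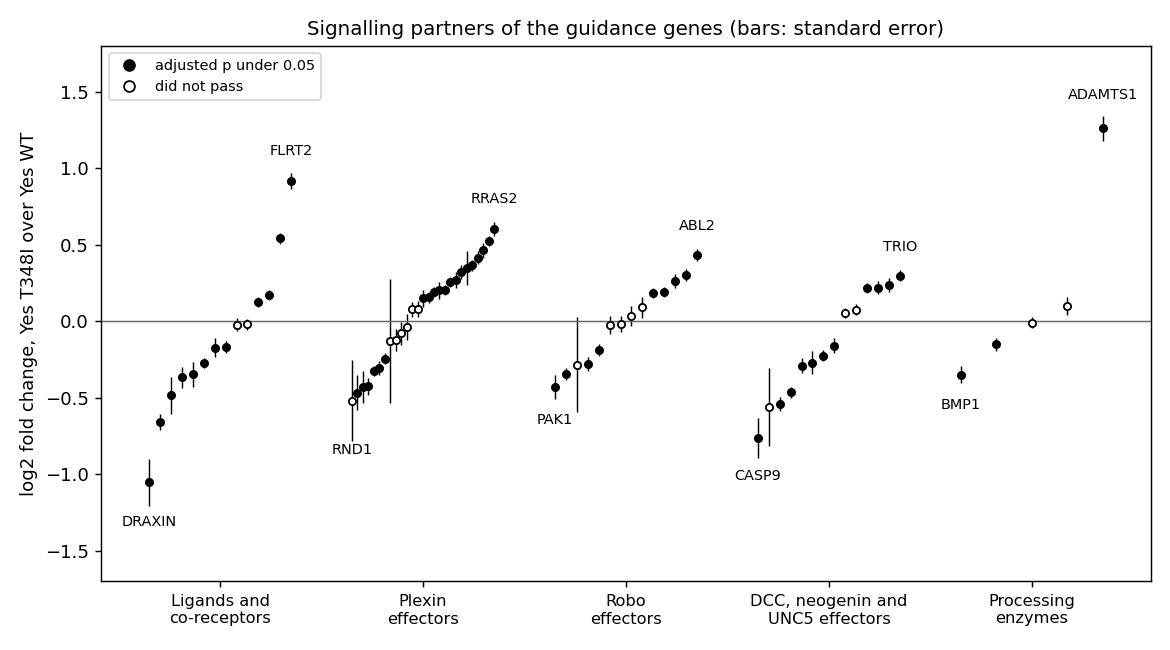
Log2 fold change of Yes T348I over Yes WT for tested partner genes in 5 lists (1 gene is not shown), with standard errors as bars, filled points for genes that passed the edgeR test and open points for those that did not. Of the genes shown, those with the lowest and the highest value of each list are named, RND1 among them with no call, and the range runs from DRAXIN (-1.05) to ADAMTS1 (1.26).

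Of 14 Robo effectors, 5 rose and 4 fell, with a median log2 fold change of 0.01. The 64.3% that passed are near the 60.6% of tested protein-coding genes, with 55.3% over all tested genes. The Slit-Robo GTPase-activating genes SRGAP1 and SRGAP2 went apart, at 0.26 and -0.35. ABL2, VASP and ENAH, which act on actin, were higher by 0.44, 0.30 and 0.19, and SOS1, PAK1 and USP33 fell by 0.28, 0.43 and 0.19 on the log2 scale. Of 15 tested effectors of DCC, neogenin and UNC5, 5 rose and 7 fell, 80% together. TRIO, CDC42 and PITPNA rose by log2 fold changes of 0.30, 0.22 and 0.22. MAGED1, which encodes a protein that binds UNC5A, fell from 237 ± 4.08 to 172 ± 8.39 CPM (SD, n = 3 each, log2 fold change -0.46), and SRC, ABLIM1 and CASP9 fell by 0.54, 0.22 and 0.76. Of 5 tested processing enzymes, 1 rose and 2 fell, 60% together, again near the share of protein-coding genes. The protease gene ADAMTS1 rose from 9.14 ± 0.497 to 21.9 ± 0.166 CPM, and BMP1 and ADAM17 fell by 0.35 and 0.15 on the log2 scale. FURIN, which cleaves class 3 semaphorins, did not pass (log2 fold change 0.10, SE 0.06).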

How the data were processed

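The authors deposited unnormalized read counts by gene, with a file for each library. Per the submitters' processing notes, the tools were STAR 2.5.1b, Trimmomatic 0.35 and CASAVA 1.8.2 and the build GRCh38, without roles. The annotation release was not stated. Column 4 (reverse strand) was used. Lines that name no gene stayed out: 5.77% to 7.11% of reads on no feature, 2.82% to 2.87% ambiguous, 6.27% to 6.67% multimapping and 2.78% to 3.27% unmapped. Symbols came from a table of gene names (41805 of 58219 identifiers), and biotypes, positions and exon lengths from GENCODE release 29 (57881 found).

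Counts were fitted in R 4.3.3 with edgeR 4.0.16: filterByExpr (minimum count 10, 14723 genes kept), TMM scaling, a quasi-likelihood F-test with no covariate, and Benjamini-Hochberg adjustment over all genes tested (threshold 0.05). Every edgeR p named in the text is adjusted this way. CPM values are TMM-scaled. The standard error is of the log2 fold change, computed as its absolute value divided by the square root of the F statistic. Libraries of a group differed by more than counting noise. The chi-square per degree of freedom was 5.20 between Yes T348I replicates 1 and 2 and 1.48 to 2.29 for the other pairs. The test was checked on simulated data in which far fewer genes changed than passed here. Alternatives used DESeq2 1.42.0, limma 3.58.1, other scalings, no filter, the unstranded column, a minimum change of 1.2-fold, the replicate number as a block and leaving out each library. A GC and length correction (lowess offsets per library) was chosen after seeing the data.

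Members, partner list and motifs were chosen with earlier results of these data known. All members are accounted for. Of the partner list up to 4 rises and 4 falls with the lowest adjusted p per sublist are named, and relatives of these; 1 such gene is not reported here. Promoters are from RefSeq, found for 39 of 46 members; those printed were picked, after their values were seen, among members with a passing change of about 1.5-fold or more.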

Additional observations from a re-analysis of the deposited data

How the results depend on the processing

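The counts of members that passed, 6 higher and 14 lower, ran from 4 and 11 against a minimum change of 1.2-fold to 7 higher (unstranded counts, GC and length correction) and 15 lower (upper quartile factors). Leaving out 1 library at a time gave 6 higher and 14 to 15 lower. Of the 20 members that passed, 15 did so in the same direction under all 16 alternatives, and SEMA3C, NRP1 and PLXNB2 missed it only against the minimum change. ROBO3 reversed to a log2 fold change of -0.016 with upper quartile factors and -0.0124 with library size only, and leaving out a library gave -0.0736 to 0.178. SEMA3D ran from -0.385 to 0.0837 over the libraries left out, reversed without Yes WT replicate 1, and SEMA6B reversed to 0.0172 with the GC and length correction; the cause was not tested. Against the minimum change 10 of the 75 tested partner genes were higher and 10 lower. Of all genes 1394 were higher and 1835 lower, 21.9% together. Both are fewer by that test's construction. Deviations of same-numbered libraries showed no pairing (correlations -0.03 to 0.001, and -0.02 to 0.04 between unlike numbers). Counting noise enters these correlations, so they cannot exclude a shared preparation. A replicate block gave 6 members higher and 14 lower, with all 20 calls kept. Members of few counts, such as SEMA7A and ROBO4, are limited by depth.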

Other observations

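Reads on the strand opposite to the counted one were 0% to 3.54% of the counted reads for 26 tested members but 22.9% for SEMA4D and 21.5% for SEMA4G. At SEMA4G the gene MRPL43 lies on that strand. At SEMA4D no exon of another gene on the opposite strand overlaps in GENCODE release 29, and the opposite-strand counts were 45, 43 and 30 in Yes WT and 43, 37 and 27 in Yes T348I.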
